A study of Homo sapiens with 4 samples.

Results

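The mRNAs described here encode the coats, small GTPases, cargo receptors and translocation channel of the early secretory pathway. They were taken by name from a table of DHX36 binding per gene, as every symbol of the SEC, COP (A, B, E, G and Z), TMED, ARF (1 to 6) and SAR1 series, and this gave 54 of 26490 genes. By role they comprised 11 COPII coat genes, 2 COPII GTPases, 8 COPI coat genes, 5 ARF GTPases, 10 p24 cargo receptors, 6 ER translocon genes, 2 signal peptidase subunits and 3 SEC22 SNARE genes. The name pattern also took in 6 SEC14-like lipid transfer genes and the pseudogene SEC1P, which have no role in coats or cargo. The study mapped RNA contacts of the DEAH-box helicase DHX36 by PAR-CLIP, in which 4-thiouridine in RNA is crosslinked to protein and crosslinked positions are read from T-to-C changes. HEK293 cells, a human embryonic kidney line, stably carried either HA-Flag-DHX36-iso2 (FH-DHX36) or HA-Flag-DHX36-iso1-E335A (FH-DHX36-E335A, a helicase-inactive mutant), each induced with 500 ng/ml tetracycline for 15 h and irradiated at 365 nm for 5 min. Both transgenes were overexpressed from a tetracycline promoter in Flp-In cells beside the cells' own DHX36. Each line had 2 replicates, but the table gives 1 pooled value per line, so no spread between replicates and no test of a difference could be obtained, and the isoform and the mutation cannot be told apart.

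DHX36 binds and unwinds G-quadruplexes, stacked structures formed by runs of guanines in DNA or RNA. COPII vesicles carry newly made proteins out of the endoplasmic reticulum: SAR1 in its GTP form recruits the SEC23-SEC24 inner coat, and SEC13-SEC31 forms the outer cage. COPI vesicles, built from coatomer on membranes that carry ARF1, return proteins from the Golgi, and the p24 proteins, encoded by the TMED genes, travel in both kinds of vesicle as cargo receptors.

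Because DHX36 prefers G-rich RNA, a G-run pattern was searched in the members' transcripts on the transcribed strand: at least 4 runs of GG or longer, separated by 1 to 7 bases that neither start nor end with G. The members with the most FH-DHX36-E335A reads in the 3′ UTR were TMED9, TMED2, SEC11A, ARF1 and SEC61G, and of these TMED9 held 12 matches and ARF1 held 3, whereas these letters were not found in the annotated 3′ UTRs of TMED2, SEC11A and SEC61G. Only matches of at most 30 bases were written out, and longer matches of TMED9 and ARF1 are not shown. Among those written out, the match richest in G of TMED9 and of ARF1 is given below. Matches in ARF6, SEC61A1, TMED3 and SEC31B follow. These genes were added after their values were seen, because their read shares were higher with FH-DHX36. All sequences are GRCh37, 5′ to 3′, written as DNA, with the G runs in capitals. The table gives no cluster positions, so a match is not shown to lie under a cluster.
TMED9, 3′ UTR, chr5:177022725-177022751, plus strand: GGGGGtGGGGGGaGGGGaatGGGcaGG
ARF1, 3′ UTR, chr1:228286240-228286260, plus strand: GGGaacatgaGGtGGtGGtGG
ARF6, 5′ UTR, chr14:50360231-50360255, plus strand: GGGcccGGGtGGcGGcGGcgactGG
ARF6, 3′ UTR, chr14:50361118-50361138, plus strand: GGcGGGGacGGGGcttGGGGG
SEC61A1, 3′ UTR, chr3:127790399-127790427, plus strand: GGGtgatGGtcacGGtGGGtGGGtGGGGG
TMED3, 3′ UTR, chr15:79615084-79615111, plus strand: GGacagaatGGtgactGGGtgcccttGG
SEC31B, 3′ UTR, chr10:102247144-102247158, minus strand: GGcctGGaGGcaGGG

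A cluster is a group of overlapping reads called as a binding site, and the crosslinked reads of a gene are those in its clusters. The FH-DHX36-E335A PAR-CLIP held 8752127 crosslinked reads over all genes and the FH-DHX36 PAR-CLIP 2160413, a ratio of 4.05. A gene listed at 0 had no called cluster, and reads outside clusters are not given. Intervals below are 95% Wilson intervals for shares and order-statistic intervals for medians over genes, and they cover counting error or the spread between genes only.

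Most secretory coat and cargo mRNAs carried DHX36 clusters. With FH-DHX36-E335A, 42 of 54 members had at least 1 cluster (77.8%, 65.1 to 86.8), against 34.5% of all genes in the table. With FH-DHX36, 30 of 54 did (55.6%, 42.4 to 68.0), against 22.4% of all genes. All 30 were also bound with FH-DHX36-E335A. mRNA level was not matched in these background shares, since the table carries it only for bound genes. Gene type was not matched either, which widens the contrast. An annotated mRNA was found for 53 of 54 members, but for only 17972 of the 26490 genes (67.8%). Of the 9131 genes bound with FH-DHX36-E335A, 8620 had one. Among genes with an annotated mRNA, 42 of 53 members were therefore bound there, against 8620 of 17972 over the whole table. The members' clusters numbered 354 with 55071 reads with FH-DHX36-E335A, 0.629% of all its reads, and 110 with 18611 reads with FH-DHX36, 0.861%. Among bound members the median was 708.5 reads per gene, against 326 over all bound genes, in the former and 167.5 against 121 in the latter.

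The other 12 members had no cluster in either PAR-CLIP: COPG2, COPZ2, SEC14L2, SEC14L3, SEC14L4, SEC14L5, SEC14L6, SEC16B, SEC22B, SEC24D, TMED6 and SEC1P. A further 12 had clusters with FH-DHX36-E335A alone, 28.6% of the 42 (17.2 to 43.6), against 37.9% of all genes bound there. They were SAR1A, SAR1B, SEC13, SEC23A, SEC24B, SEC31A, COPB2, COPE, ARF4, SEC61A2, SEC61B and SEC22A. Their FH-DHX36-E335A reads ran from 140 to 1597 with a median of 433.5, lower than the 875.5 of members bound in both. Divided by the ratio of the read totals these reads would correspond to 34.6 to 394 reads with FH-DHX36. The lowest count of a member listed there was 13, in the 1 cluster of COPG1. Clusters are called per site and not on the summed reads of a gene. Whether these members would have been called at the lower depth was not tested.

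**Figure D1:**
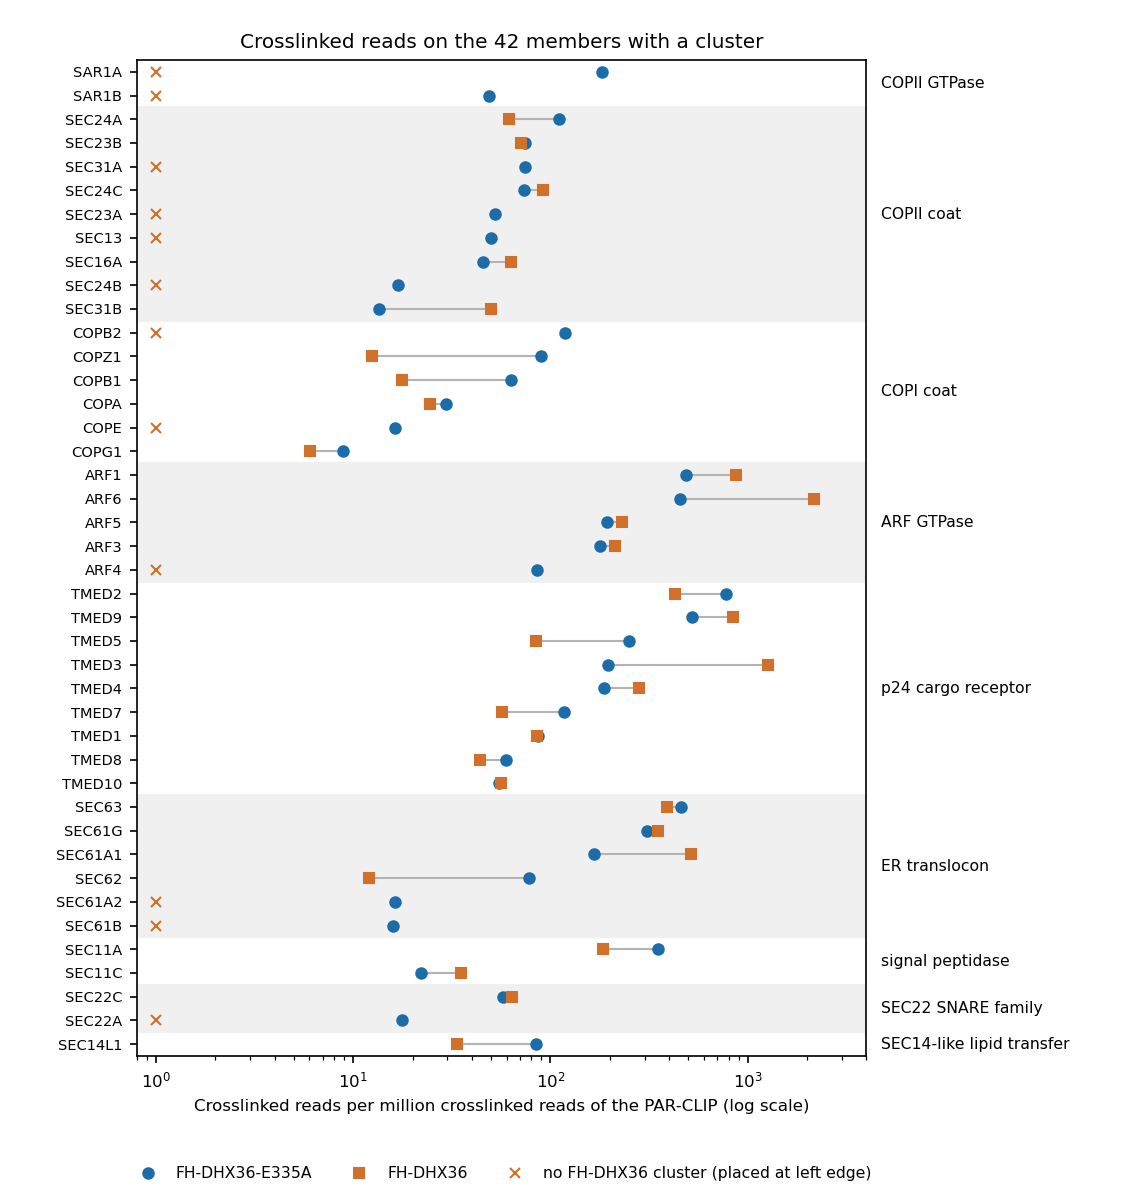
Crosslinked reads scaled to 1000000 reads of each PAR-CLIP (log axis) for the 42 members with a cluster, by role; circles are FH-DHX36-E335A, squares FH-DHX36, and crosses at the left edge mark the 12 members with no FH-DHX36 cluster. TMED2 lies furthest right of the circles at 777 scaled reads and ARF6 of the squares at 2160, and both SAR1 genes lack FH-DHX36 clusters.

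The COPII genes were bound at moderate counts; where a pair of counts is given from here on, the FH-DHX36-E335A value comes first. SAR1A and SAR1B, the GTPases that start COPII assembly, had 1597 reads in 14 clusters and 429 reads in 12 clusters with FH-DHX36-E335A but lacked any cluster with FH-DHX36. Their reads lay mainly in the 3′ UTR, with 1376 and 276 reads. NXPM, the study's crosslinked reads normalised to depth and mRNA abundance, was nearly equal for the pair at 9.48 and 9.59, since the read ratio of 3.72 went with an abundance ratio of 3.77.

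Of the 11 COPII coat genes, 9 carried FH-DHX36-E335A clusters and 5 FH-DHX36 clusters. SEC24A, a cargo-binding inner coat subunit, had the most FH-DHX36-E335A reads of the group at 965, with 133 for FH-DHX36, and 791 of the 965 and all 133 lay in introns. SEC24A and SAR1B overlap on opposite strands, and whether reads were assigned by strand is not given in the sources used here. SEC23B, its inner coat partner, had 651 and 153 reads, 366 and 153 of them in the CDS. SEC31A, of the outer cage, had 647 reads and no FH-DHX36 cluster, with 168 reads in the 5′ UTR and 201 in introns. SEC24C had 644 and 198 reads, mostly in the 3′ UTR, the latter the highest FH-DHX36 count of the group. The paralogues differed in whether they were bound at all in FH-DHX36: SEC23A had 461 and 0 reads, and SEC24B 147 and 0. SEC31B, expressed at a recovered abundance of 0.646, the lowest of the bound members, had only 118 and 108 reads but an NXPM of 20.8 and 77.2. SEC16A, which marks ER exit sites, had 397 and 136 reads, and SEC13, shared by the outer cage and the nuclear pore, had 438 and 0.

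COPI coat genes had few FH-DHX36 reads. Over the 8 genes, 6 were bound with 2859 reads with FH-DHX36-E335A and 4 were bound with 131 reads, 1 cluster each, with FH-DHX36. COPB2, the β′ subunit of coatomer, had 1038 reads, 758 in the CDS, and no FH-DHX36 cluster. COPZ1, a small adaptor-like subunit, had 786 and 27 reads, 689 of the 786 in the 3′ UTR. COPB1 had 555 and 38, COPA 260 and 53, COPE 142 and 0 and COPG1 78 and 13. The CDS held 51.6% and the 3′ UTR 41.4% of the group's exonic FH-DHX36-E335A reads, and COPB2 alone carried 758 of the 1218 CDS reads. Without COPB2 the shares were 34.8% and 62.2%. All 80 exonic FH-DHX36 reads of the group lay in the 3′ UTR.

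The ARF genes carried far more reads. ARF1, the GTPase that recruits coatomer, had 4269 and 1884 reads with FH-DHX36-E335A and FH-DHX36, 2316 and 1620 of them in the 3′ UTR. ARF6, which acts at the plasma membrane and endosomes, had 3958 and 4666 reads, the latter the highest of any member and rank 42 of all genes. The category outside the UTRs, CDS and introns held 2143 and 3264 of the ARF6 reads, and 1791 and 0 of the ARF1 reads. The 5′ UTR held 343 and 1135 of the ARF6 reads and none of the ARF1 reads. What that remaining category contains is not given in the sources used here. ARF5 had 1688 and 500 reads, ARF3 1556 and 457, and ARF4 750 and 0. Of ARF6 25-base words, 29.8% also occurred elsewhere in the genome, and how the mapping placed such reads was not tested.

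The p24 receptors were the group with the most FH-DHX36-E335A reads. Of 10 TMED genes, 9 were bound in both PAR-CLIPs, with 19704 and 6811 reads, and TMED6 in neither. The ARF genes held 12221 and 7507. TMED2 had 6797 and 923 reads in 11 clusters each, and ranked 171 of all genes with FH-DHX36-E335A. TMED9 had 4574 and 1820 reads, and with FH-DHX36-E335A a single 3′ UTR cluster held 4082. TMED2 and TMED9 were near equal in abundance, with a ratio of 1.05. TMED5 had 2196 and 182 reads, in 21 and 4 clusters, and TMED3 had 1721 and 2752, all in 3 clusters of the 3′ UTR in each PAR-CLIP. TMED4 had 1635 and 610 reads, TMED7 1023 and 123, TMED1 753 and 184, TMED8 523 and 95 and TMED10 482 and 122. The 3′ UTR held 88.3% and 87.8% of the group's exonic reads. TMED7 overlaps TMED7-TICAM2 on the same strand, so reads of these genes cannot be told apart.

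The channel and enzymes that nascent secretory proteins meet at the ER were bound over a wide range. SEC63, which works with SEC62 in post-translational translocation, had 4005 and 841 reads, and 3134 and 599 of these lay in the CDS. With FH-DHX36-E335A the CDS was the leading region in 10 of 42 members, a count that was not made over all genes. The CDS of SEC63 shares 32.6% of its 25-base words with other places in the genome, and the part of these words in its reads was not tested. SEC61G, a small subunit of the SEC61 channel, had 2689 and 762 reads, 2067 and 762 in the 3′ UTR, although its annotated 3′ UTR has only 158 bases. SEC61A1, the pore-forming subunit, had 1458 and 1121 reads, 1422 and 1089 in the 3′ UTR. SEC62 had 678 and 26 reads, SEC61A2 143 and 0, and SEC61B 140 and 0. Of the signal peptidase subunits, SEC11A had 3086 and 397 reads, 3052 and 397 in the 3′ UTR, and SEC11C had 194 and 76, none in the 3′ UTR. Their abundances were similar, with an SEC11A to SEC11C ratio of 0.793, but the NXPM of SEC11A was higher, at 3.45 against 0.172 with FH-DHX36-E335A, a ratio of 20.1, and at 1.80 against 0.273 with FH-DHX36, a ratio of 6.59.

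The remaining bound members were few. SEC22C had 506 and 138 reads, and SEC22A 155 and 0. SEC22B, the ER-Golgi SNARE, had no cluster, and 0.421% of the 25-base words in its annotated transcript occurred elsewhere. The CDS of that transcript, lifted to GRCh37, had 578 bases. This is not a whole number of codons, so the sequence may be incomplete. Words of 25 bases that also occur elsewhere made up 31.7% of TMED10, 28.7% of SEC61B, 25.3% of ARF4 and 23.8% of SAR1A. The counts of these genes are therefore less certain. In SEC11A the share was 17.7% over the transcript but 3.99% in the 3′ UTR. That region held 3052 of its 3086 FH-DHX36-E335A reads and all 397 FH-DHX36 reads. SEC14L1 was the only SEC14-like gene with a cluster, with 739 and 73 reads, of which 405 and 73 were intronic.

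By region, the members' reads lay mainly in 3′ UTRs in both PAR-CLIPs. Of exonic reads, 77.2% (76.8 to 77.6) for FH-DHX36-E335A and 76.3% (75.6 to 77.0) for FH-DHX36 were in the 3′ UTR, against 71.9% and 51.4% over all genes. A few genes weigh heavily here. Without SEC63 the shares were 82.8% and 79.6%, and without TMED3 they were 76.3% and 70.7%. With FH-DHX36-E335A the 5′ UTR held 1.74% of all the members' reads, against 7.11% for FH-DHX36, and of the 1323 such FH-DHX36 reads 1135 were on ARF6. Per cluster, the 3′ UTR share of exonic clusters was 64.4% and 62.4%, against 59.3% and 51.5% over all genes. In the same bound members 3′ UTRs made up 53.9% and 59.3% of the annotated mRNA length, so the share of clusters there was 1.19 and 1.05 times the share of length. Over all genes with an exonic cluster and an annotated mRNA these ratios were close by, at 1.13 and 0.98.

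**Figure D2:**
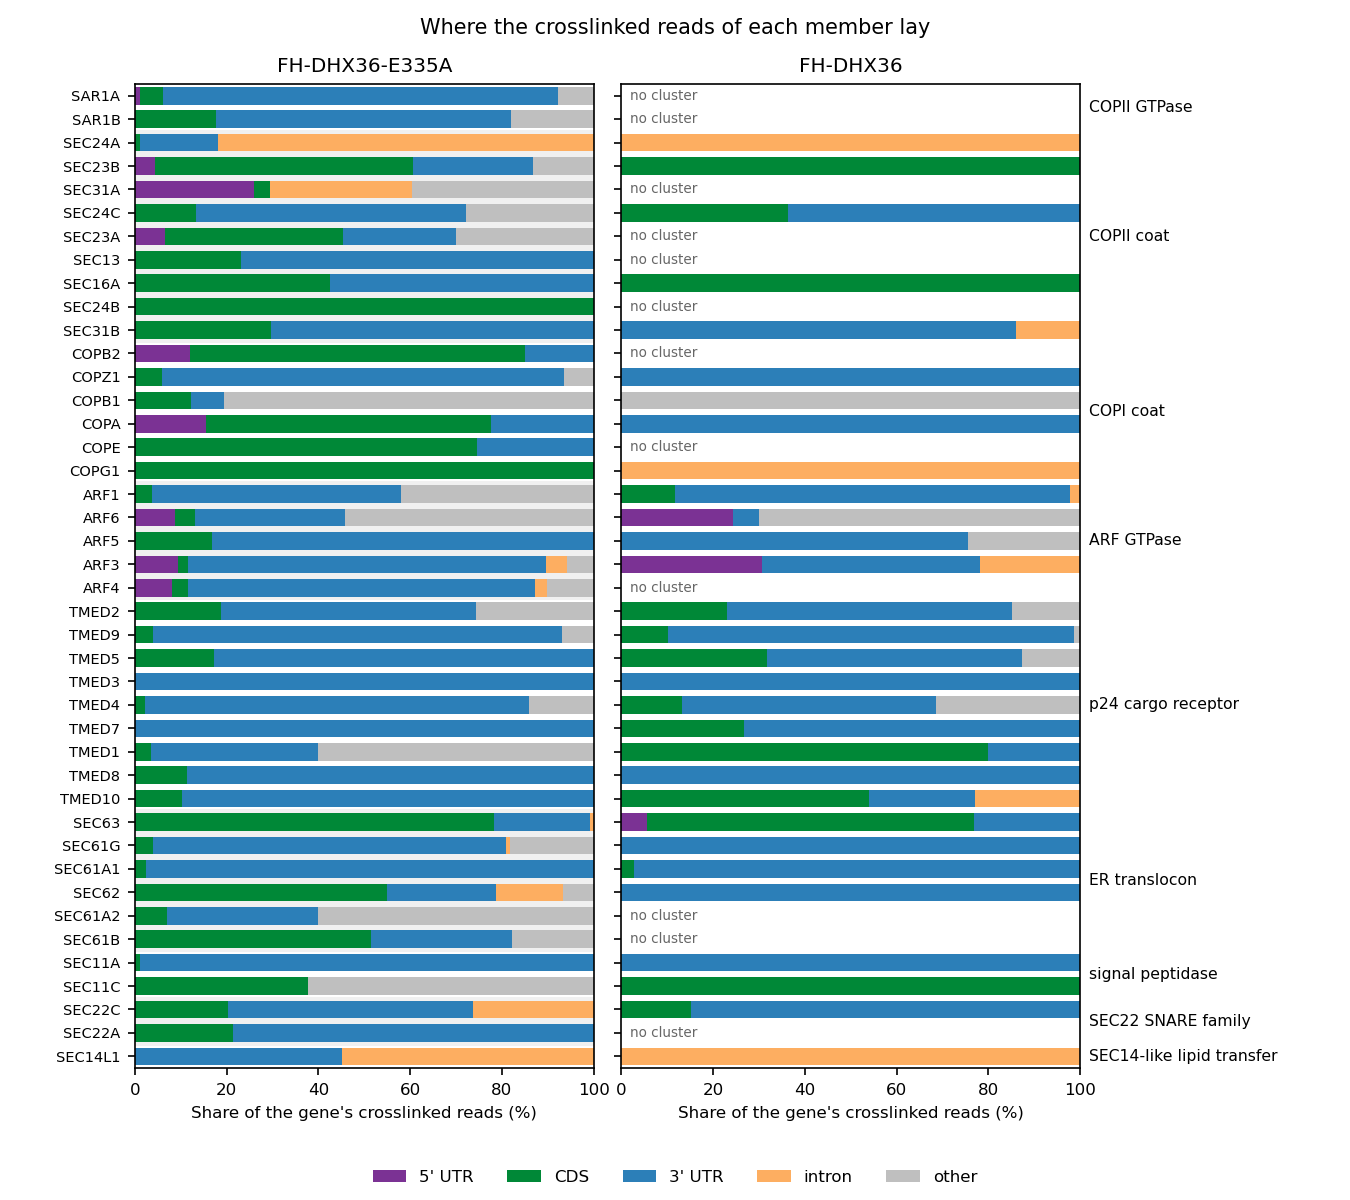
Share of each bound member's crosslinked reads (%) in the 5′ UTR, CDS, 3′ UTR, introns and the remaining category, with FH-DHX36-E335A (left) and FH-DHX36 (right). The 3′ UTR takes the largest share in 24 of 42 and in 19 of 30 bound members, against 4894 of 9131 and 2208 of 5930 over all bound genes. SEC63 is mainly CDS and SEC24A mainly intron.

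The members' abundance was set beside their reads. mRNA abundance was recovered by dividing scaled reads by NXPM, and the values from both PAR-CLIPs were within 1% of each other for 30 of 30 members bound in both. The median NXPM of bound members was 5.76 (3.50 to 9.06) with FH-DHX36-E335A, against 5.66 over all bound genes, and 4.84 (3.01 to 12.4) with FH-DHX36, against 7.84. The median abundance of members bound with FH-DHX36-E335A was 13.3, against 5.89 over all bound genes. SEC63 had the highest FH-DHX36-E335A NXPM at 75.1, followed by ARF6 at 44.1 and TMED5 at 42.0. SEC61B and COPE had the lowest, at 0.0636 and 0.101, with abundances of 252 and 160. With FH-DHX36, ARF6 reached an NXPM of 210, and no other member passed 100. Spearman's rho between reads and abundance was 0.46 and 0.49 over the 30 members, against 0.23 and 0.205 over 5647 genes, a description across genes that share libraries and are not independent replicates.

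**Figure D3:**
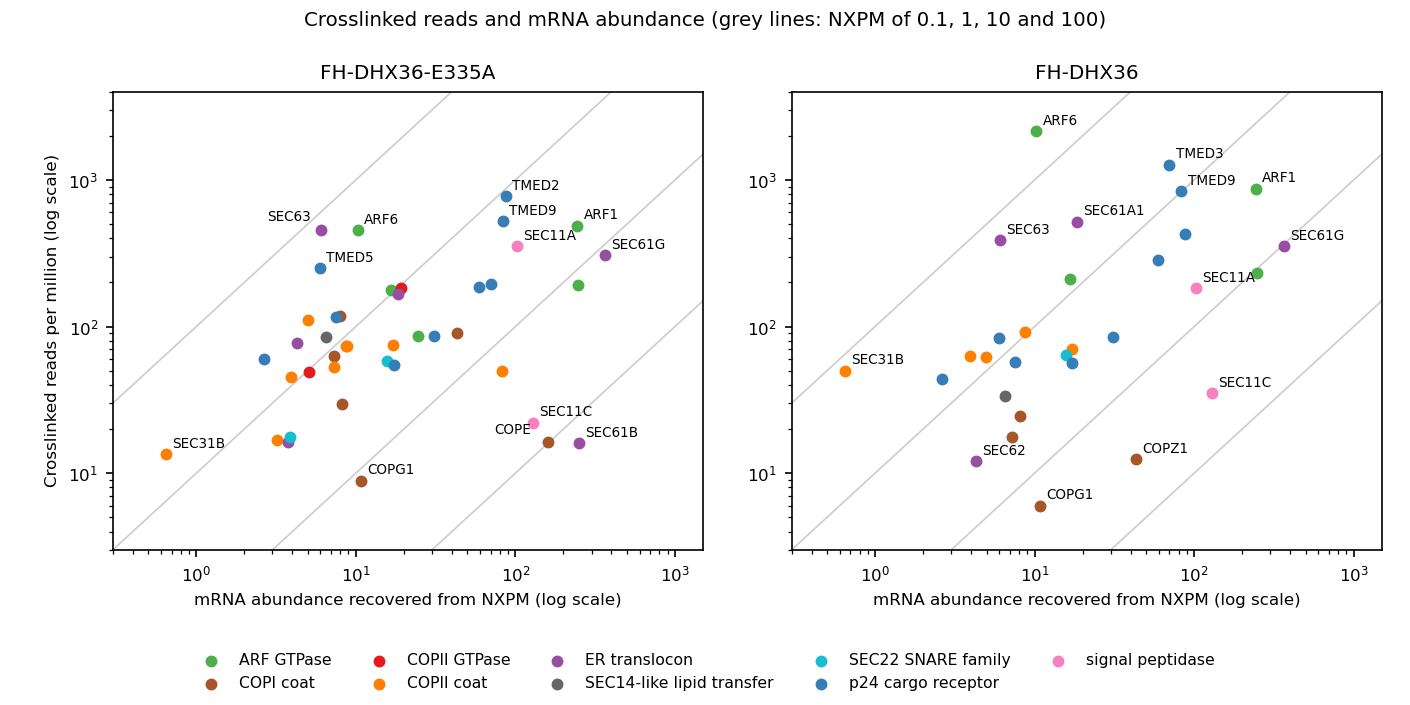
Crosslinked reads scaled to 1000000 against recovered mRNA abundance (both log axes) for bound members of each PAR-CLIP, coloured by role; grey lines mark equal NXPM. SEC63, ARF6 and TMED5 lie highest above the NXPM line of 10 in FH-DHX36-E335A, and SEC61B and COPE lie closest to the line of 0.1.

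The read shares of the 2 PAR-CLIPs were compared for the 30 members bound in both, as the log2 ratio of FH-DHX36-E335A over FH-DHX36. The median was -0.01 (-0.32 to 0.57), with 15 members above and 15 below 0, against 0.12 over all genes bound in both. Of the 29 members with at least 20 reads in each, 6 (20.7%) had a share at least 2 times higher in FH-DHX36-E335A, against 27.3% of all genes so tested, and 4 (13.8%) at least 2 times higher in FH-DHX36, against 24.8%. These counts depended on the reads used: by exonic reads they were 4 and 7 of 26 members, with at least 50 reads in each 3 and 4 of 26, and with at least 100 reads 2 and 4 of 22, in alternatives chosen after seeing the data. The folds are between pooled values with no replicate check.

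The counting error of the log2 ratio, given after ±, is a standard error that takes reads as independent, and it is no test of a difference. The 6 higher in FH-DHX36-E335A were COPZ1 (2.85 ± 0.28), SEC62 (2.69 ± 0.29), COPB1 (1.85 ± 0.24), TMED5 (1.58 ± 0.11), SEC14L1 (1.32 ± 0.18) and TMED7 (1.04 ± 0.14). COPZ1, SEC62 and COPB1 rested on 27, 26 and 38 FH-DHX36 reads. The 4 higher in FH-DHX36 were TMED3 (-2.70 ± 0.04), ARF6 (-2.26 ± 0.03), SEC31B (-1.89 ± 0.19) and SEC61A1 (-1.64 ± 0.06). SEC11A, at 0.94 ± 0.08, lay just inside the 2-fold limit. By group, the 4 COPI members bound in both had values above 0, with a median of 1.21. However, COPA, at 0.28 ± 0.22, lay within 2 counting errors of 0, as did COPG1, at 0.57 ± 0.43 on 13 FH-DHX36 reads. All 38 FH-DHX36 reads of COPB1 and 447 of its 555 FH-DHX36-E335A reads lay in the remaining category. The 13 FH-DHX36 reads of COPG1 were all intronic, whereas its 78 FH-DHX36-E335A reads were all in the CDS. The 4 ARF members bound in both had values below 0, with a median of -0.55. Of these, ARF1 (-0.84), ARF5 (-0.26) and ARF3 (-0.25) lay inside 2-fold, and only ARF6 passed it. ARF4 had 750 FH-DHX36-E335A reads and no FH-DHX36 cluster, so it has no ratio and does not share this direction. Over all genes bound in both, 3030 of 5669 were above 0 and 2639 below. The p24 receptors spanned both directions, from TMED3 at -2.70 to TMED5 at 1.58. NXPM in the 2 PAR-CLIPs ranked the 30 members alike, with a Spearman's rho of 0.77, against 0.79 over 5669 genes, where both share the same abundance divisor.

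**Figure D4:**
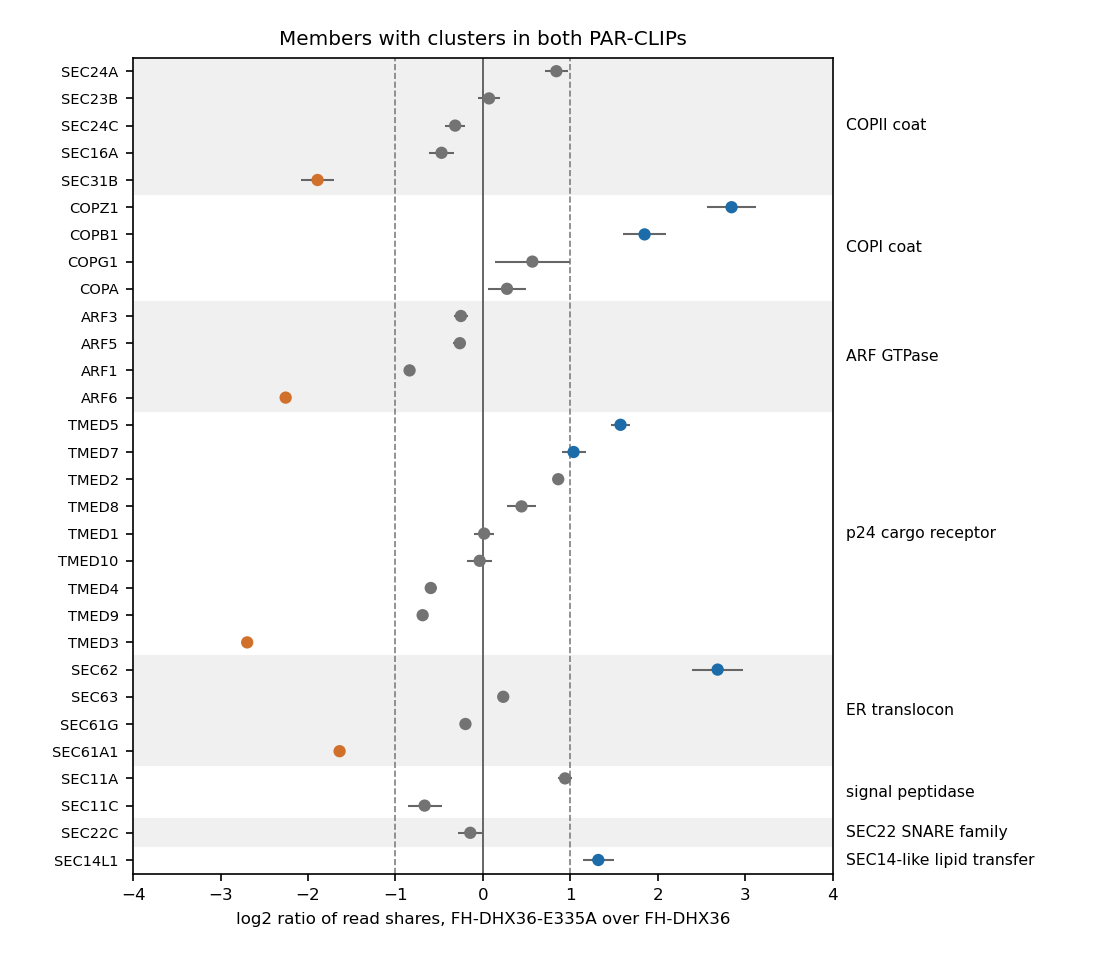
log2 ratio of read shares, FH-DHX36-E335A over FH-DHX36, for the 30 members with clusters in both; bars are the counting error of the ratio and dashed lines mark 2-fold. Blue points are the 6 members past 2-fold in FH-DHX36-E335A, orange the 4 past it in FH-DHX36, with TMED3 furthest left at -2.70 and COPZ1 furthest right at 2.85.

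The G-run pattern was found in most of the members' 3′ UTRs, as it was over all genes. Of 53 members with an annotated mRNA, 32 had a match in the 3′ UTR (60.4%), against 63.5% of all genes with an annotated 3′ UTR, and the density was 1.64 against 1.58 per kb. Among members bound in both PAR-CLIPs 21 of 30 had one (70.0%), against 73.2% of all such genes, while among those bound with FH-DHX36-E335A alone 3 of 12 did (25%), against 63.6% of all such genes. Of these 12, SAR1A held 10 matches and SEC22A 5. The median 3′ UTR was 1618 bases long in members bound in both and 901 in those bound by FH-DHX36-E335A alone, and length was not adjusted for. Members with no cluster had a match in 8 of 11. A first count that let any bases stand between runs also gave 32 of 53, 21 of 30 and 3 of 12. Transcript length and NXPM were correlated across the 42 bound members, with a Spearman's rho of 0.79, against 0.55 over 8613 genes, as a description across genes. NXPM takes the crosslinked reads of a whole gene, with those in introns and the remaining category, and how far this alone ties it to length was not tested. The paper reports that binding did not correlate with transcript length, by a measure its main text does not name.

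Genes that act beside the members, from 4 lists of 62 genes, were also mostly bound. With FH-DHX36-E335A, 57 of 62 had a cluster (91.9%), against 34.5% of all genes, and with FH-DHX36 41 did (66.1%), against 22.4%. The lists were chosen with earlier results of these data known, and neither mRNA level nor gene type was matched. These shares are therefore a description of the lists and no independent support. Of 37 with at least 20 reads in each, 12 (32.4%) had a share at least 2 times higher in FH-DHX36-E335A, against 27.3% of all genes so tested, and 7 (18.9%) at least 2 times higher in FH-DHX36, against 24.8%. The lists held few such genes each. Past 2-fold in FH-DHX36-E335A and in FH-DHX36 were 6 and 0 of 12 ER entry partners, 3 and 1 of 8 cargo receptors, 2 and 2 of 9 tethers and SNAREs and 1 and 4 of 8 vesicle budding and coat partners. Among ER entry partners, which target and help translocate proteins, SSR3, SRP9 and SRP68 led with 2795, 1750 and 1605 FH-DHX36-E335A reads. Among cargo receptors CNIH4, KDELR2 and ERGIC2 led with 4813, 2186 and 1411, and KDELR2 had no FH-DHX36 cluster. Among tethers and SNAREs the leaders were YKT6, GORASP2 and BET1 with 10643, 1097 and 492, and YKT6, a SNARE of ER-Golgi transport, had 2097 FH-DHX36 reads. Among vesicle budding and coat partners PDCD6, TFG and ARFGEF1 led with 843, 776 and 455.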

How the data were processed

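PAR-CLIP libraries of 2 replicates per cell line were, per the authors, mapped to hg19, grouped into clusters with PARalyzer within PARpipe at default settings and annotated with GENCODE release 19. The submitters' processing notes name bcl2fastq 2.17.1, and no version of PARalyzer or PARpipe is stated. The deposited counts of clusters and crosslinked reads and the deposited NXPM score, which the authors normalised to mRNA abundance, hold 1 pooled value per cell line. Region NXPM is scaled to the reads of that region.

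Members were taken by symbol, and members and lists were chosen with earlier results of these data known. Read shares were divided between PAR-CLIPs, and called at 2-fold with at least 20 reads in both. Abundance was recovered as scaled reads over NXPM, less 0.001. Sequence features came from the canonical transcripts of GENCODE release 44 lifted to GRCh37, which is not the authors' release. The G-run pattern was tightened after a first count, which let a G within a run stand between runs. Named genes were the 4 members of each role with most FH-DHX36-E335A reads, their paralogues, members past 2-fold and the 3 leading genes of each partner list; others were added after their values were seen. No replicate test was possible. Calculations were tested on simulated data and used Python 3.11.15, pandas 2.3.3, numpy 2.4.6, scipy 1.17.1 and matplotlib 3.10.9.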

Additional observations from a re-analysis of the deposited data

How the results depend on the processing

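No paired analysis was possible because the table pools the replicates of each cell line, and for the same reason no replicate could be left out. Of 40 alternatives, 22 left the value within its interval or count range and 18 moved it. Requiring 2 clusters lowered the FH-DHX36 share of bound members to 40.7%, against 12.7% of all genes under the same rule. The FH-DHX36-E335A 3′ UTR share, with a narrow counting interval, moved to 64.4% in clusters, 62.2% over all reads, 80.2% as the median per gene, 76.3% without TMED3 and 82.8% without SEC63. The FH-DHX36 share moved to 62.4%, 59.1%, 82.7%, 70.7% and 79.6% in the same order, and to 82.5% without ARF6. Counting unbound members at 0 lowered the FH-DHX36 median NXPM to 0.747. Adding 3 reads to each count and including members bound in either PAR-CLIP raised the median log2 ratio to 0.61, while adding 3 reads to the members bound in both alone, chosen after seeing the data, gave -0.03. In alternatives added after seeing the data, 3 and 2 members in place of 6 were higher in FH-DHX36-E335A with at least 50 and 100 reads in both, and 7 in place of 4 were higher in FH-DHX36 by exonic reads. The FH-DHX36 PAR-CLIP, the shallower of the pair, limits what can be said of members with few reads.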
